A study of Mus musculus with 4 samples.

Results

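G6pc2 and Spc25 are neighbouring genes on mouse chromosome 2, and they were followed here through 4 RNA sequencing libraries of sorted pancreatic β-cells. They were taken by name from the deposited count table and make up 2 of its 23420 genes; both passed the filter on low counts. The pair was chosen because earlier results on these same libraries showed both at a lower level in the libraries labelled Bmal1KO, so that difference and their ratio are described below and carry no test. The tested genotype was labelled Bmal1KO (2 libraries) and its comparison Bmal1Het, with the genotype Bmal1+/- (2 libraries). Mice of both genotypes carried DTA, the toxin gene that was switched on by doxycycline for 10 days to remove most β-cells, and the sorted cells are those that remained. The sources used here do not give the promoter driving DTA, the way Bmal1 was deleted, the age of the animals or the number pooled in a library.

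G6PC2 is a glucose-6-phosphatase of the endoplasmic reticulum that is largely restricted to pancreatic β-cells. It turns glucose 6-phosphate back into glucose and so takes part in setting the glucose level at which insulin is released; it is also a target of autoimmune T cells in diabetic mice. SPC25 is a subunit of the NDC80 complex, in which SPC24 and SPC25 hold the kinetochore while NDC80 and NUF2 bind microtubules, and genes of this complex are usually expressed in dividing cells.

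The 2 genes lie head to head. In GENCODE M21 (GRCm38) Spc25 (ENSMUSG00000005233) runs on the minus strand of chromosome 2 from 69193895 to 69206194, with 9 annotated transcripts, 6 of them coding. G6pc2 (ENSMUSG00000005232) runs on the plus strand from 69211073 to 69227841, with 4 transcripts, 2 of them coding. The starts are 4.88 kb apart when measured to the most upstream G6pc2 transcript, a non-coding one, and 13.8 kb apart for the first coding transcript of G6pc2, which begins at 69219971. No exon base of either gene overlaps an exon of another annotated gene, and 0 annotated transcripts span both. The annotation used for the deposited counts is unknown here. Nostrin ends 4.56 kb beyond the far end of Spc25, and Abcb11 ends 10.4 kb beyond the far end of G6pc2.

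**Figure D1:**
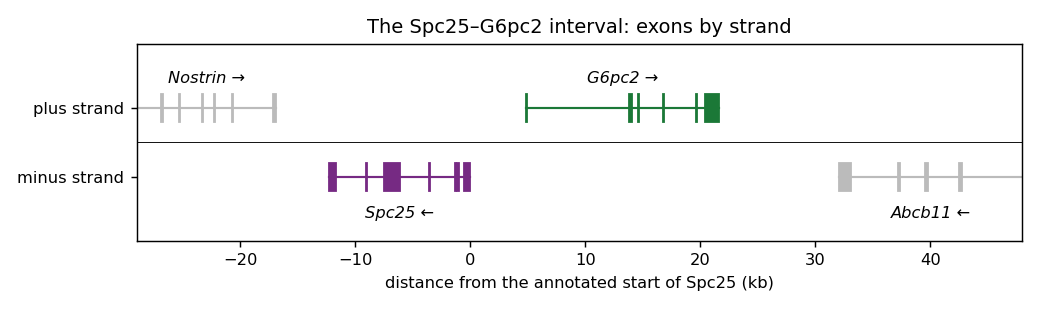
Exons (boxes) of Spc25, G6pc2 and the nearest coding genes by strand, against the distance in kb from the annotated start of Spc25; arrows give the direction of transcription, and Nostrin and Abcb11 run off the edges. Spc25 and G6pc2 point away from each other with 4.88 kb between their outermost starts.

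The start regions of the pair are shown because the libraries in which the 2 RNAs were low were the same. Each is 300 bases long, 250 before and 50 from the RefSeq start, read 5′ to 3′ on the strand of its gene (RefSeq, GRCm38.p6); 4 of the 5 genes looked up (G6pc2, Spc25, Ndc80, Nuf2 and Spc24) had such a window. The Spc25 window is chr2:69206164-69206463 on the minus strand, and the G6pc2 windows are chr2:69219699-69219998 (downstream start, near that of the coding transcripts) and chr2:69210823-69211122 (upstream start) on the plus strand. The window of Ndc80, chr17:71526808-71527107 on the minus strand, is added as that of a partner subunit. Capitals mark matches on either strand to CCAAT, the box bound by NF-Y, to TTTGAA or TTTAAA, forms of the CHR element of cell cycle genes, and to the E-box CACGTG, which BMAL1 and CLOCK bind.
Spc25: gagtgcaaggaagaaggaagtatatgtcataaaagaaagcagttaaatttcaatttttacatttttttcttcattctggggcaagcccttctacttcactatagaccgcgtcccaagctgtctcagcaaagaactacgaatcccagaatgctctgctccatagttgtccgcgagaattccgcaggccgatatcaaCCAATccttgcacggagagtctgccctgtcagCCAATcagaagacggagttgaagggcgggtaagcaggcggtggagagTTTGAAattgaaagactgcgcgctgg
G6pc2 downstream start: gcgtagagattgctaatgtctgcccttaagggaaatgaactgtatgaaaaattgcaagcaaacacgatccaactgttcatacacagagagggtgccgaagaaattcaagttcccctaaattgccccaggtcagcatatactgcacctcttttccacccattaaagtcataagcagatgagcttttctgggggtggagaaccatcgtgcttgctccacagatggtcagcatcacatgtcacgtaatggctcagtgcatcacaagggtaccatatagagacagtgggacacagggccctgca
G6pc2 upstream start: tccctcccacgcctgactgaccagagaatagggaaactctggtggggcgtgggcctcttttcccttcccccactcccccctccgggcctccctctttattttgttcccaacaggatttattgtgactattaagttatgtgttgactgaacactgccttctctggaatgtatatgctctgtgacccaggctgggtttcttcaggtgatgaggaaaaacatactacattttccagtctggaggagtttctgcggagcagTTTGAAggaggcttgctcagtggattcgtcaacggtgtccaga
Ndc80: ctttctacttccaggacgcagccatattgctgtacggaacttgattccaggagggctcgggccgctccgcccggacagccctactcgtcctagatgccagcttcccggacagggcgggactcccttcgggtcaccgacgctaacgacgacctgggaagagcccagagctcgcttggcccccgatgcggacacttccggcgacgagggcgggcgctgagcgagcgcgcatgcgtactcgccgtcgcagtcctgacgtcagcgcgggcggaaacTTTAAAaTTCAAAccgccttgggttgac

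The Spc25 window held 2 CCAAT boxes, 55 and 23 bases before the start, and 1 TTTGAA 24 bases after it. The Ndc80 window held TTTAAA at 22 and TTTGAA, on the opposite strand, at 29 bases after the start. The window of Nuf2, chr1:169531415-169531714 on the minus strand, held 0 matches to any of the motifs. The downstream start of G6pc2 held 0 matches to these 3 motifs, and its upstream start held 1 TTTGAA. Of 32851 such windows of mouse genes, 37.4% held CCAAT, 27.6% held TTTGAA or TTTAAA, 10.7% held both, and 7.15% held CACGTG, which was in 0 of the 5 windows matched. TGCTGA, the opening letters of the element that MAFA binds, was also searched on both strands. It was at 2 places in the downstream window of G6pc2 and at 1 in that of Spc25, against 19.5% of all windows. These are letter matches in a short window and say nothing of binding.

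The libraries held 31056116 to 32819576 counts under the label Bmal1KO and 34776920 to 38020488 under Bmal1Het. RNA of the targeted gene Arntl (the symbol of Bmal1) was higher in the libraries labelled Bmal1KO, at 70.7 ± 7.22 CPM, against 19.0 ± 5.69 CPM in the Bmal1Het libraries (SD, n = 2 each; edgeR adjusted p = 0.0175, and 0.0724 without Bmal1Het replicate 2). Counts over the whole gene do not show whether a deleted part is missing, so groups are called by their labels. Whether replicates are separate animals is not stated in the labels, so p-values reflect only how far these libraries differ, and part of that may be technical. As a check of the sort, the 8 β-cell markers summed to 272778 and 233857 CPM in the Bmal1KO libraries and to 215011 and 273949 CPM in the Bmal1Het libraries. Most of each sum was Ins2, at 194550 and 168848 CPM in the Bmal1KO libraries and 151722 and 187302 CPM in the Bmal1Het libraries. The sums therefore say little of the other markers. Of the 8, 6 had a lower level under the label Bmal1KO and 2 a higher one, with a median log2 fold change of -0.37. Of the 14649 genes that entered edgeR's quasi-likelihood test, 2.54% passed at a Benjamini-Hochberg adjusted p under 0.05, with 176 (1.2%) higher under the label Bmal1KO and 196 (1.34%) lower. Both counts rest on each library; without Bmal1Het replicate 2 they were 17 and 8, and without Bmal1KO replicate 2 they were 404 and 422.

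G6pc2 was among the most abundant RNAs of these cells and stood lower in the libraries labelled Bmal1KO. Levels are given as CPM, read counts scaled to the size of the library with TMM factors. G6pc2 had 1028 and 1118 CPM in the 2 Bmal1KO libraries, against 2061 and 2103 CPM in the 2 Bmal1Het libraries (33756 and 35794 reads against 79807 and 69469). It ranked 29 and 32 among the 23420 genes of the Bmal1KO libraries and 19 and 18 in the Bmal1Het libraries. The fitted log2 fold change was -0.96 (SE 0.13), a fold of 0.515. The groups did not overlap, and the replicates of each lay within 1.09 times of each other.

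Spc25 was likewise lower in both Bmal1KO libraries, at a lower level than G6pc2. It had 303 and 284 CPM in the Bmal1KO libraries, against 656 and 707 CPM in the Bmal1Het libraries (9937 and 9099 reads against 25397 and 23367). It ranked 283 and 317 in the Bmal1KO libraries and 83 and 75 in the Bmal1Het libraries. The fitted log2 fold change was -1.22 (SE 0.14), a fold of 0.430. For both genes each Bmal1KO library lay below each Bmal1Het library, which was also so for 23.8% of all genes tested. This contrast chose the pair, so nothing is read from that share. In sorted bulk samples fewer cells that express a gene and less RNA per cell cannot be told apart.

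**Figure D2:**
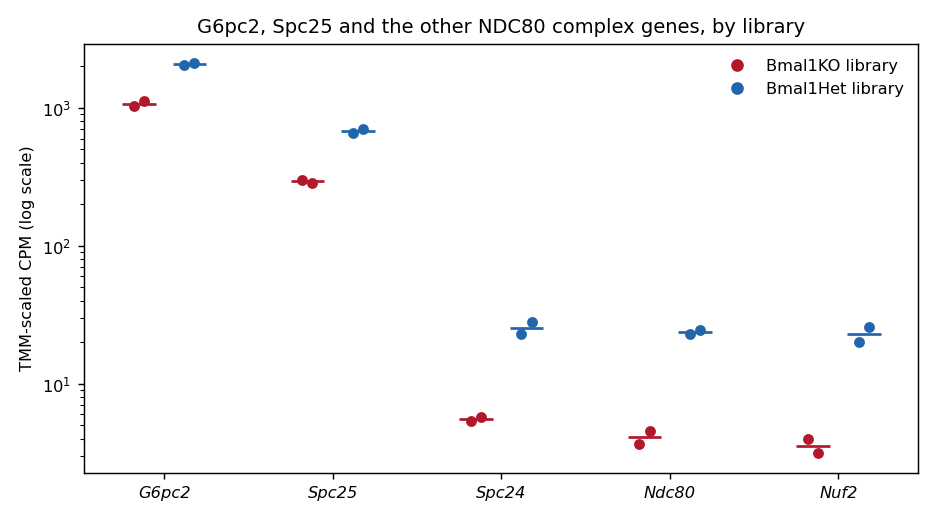
TMM-scaled CPM on a log axis for G6pc2, Spc25 and the 3 other NDC80 complex genes; each point is a library, the short lines are group means, and Bmal1KO libraries stand left of Bmal1Het libraries. Spc25, at 284 to 707 CPM, lies below G6pc2, at 1028 to 2103 CPM, and Spc24, Ndc80 and Nuf2 lie at 3.12 to 28.0 CPM.

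The ratio of the 2 genes moved less across the libraries than either level did. Within a library this ratio does not depend on scaling. There were 3.40 and 3.93 G6pc2 reads for each Spc25 read in the Bmal1KO libraries, and 3.14 and 2.97 in the Bmal1Het libraries. The exact binomial 95% intervals, which cover counting error only, were 3.32 to 3.47 and 3.84 to 4.03 in the Bmal1KO libraries and 3.10 to 3.19 and 2.93 to 3.02 in the Bmal1Het libraries. The 4 intervals do not overlap one another, so even replicates of a group differed by more than counting error. The highest ratio was 1.32 times the lowest. The mean ratio was 3.67 ± 0.380 in the Bmal1KO libraries and 3.06 ± 0.120 in the Bmal1Het libraries (SD, n = 2 each), a difference of 0.26 on the log2 scale between groups. The log2 ratio had an SD of 0.15 within the Bmal1KO libraries and 0.057 within the Bmal1Het libraries. Without Bmal1KO replicate 2 the difference was 0.15, and without Bmal1KO replicate 1 it was 0.36. Per kilobase of exon, G6pc2 stood 5.49 and 6.35 times above Spc25 in the Bmal1KO libraries and 5.07 and 4.80 times above it in the Bmal1Het libraries. With the longest transcript as the length these ratios were 3.36 and 3.89 in the Bmal1KO libraries and 3.10 and 2.94 in the Bmal1Het libraries.

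The 3 genes whose proteins form the NDC80 complex with SPC25 differed from Spc25 in level and in fold change. Ndc80, which binds microtubules, had 3.68 and 4.53 CPM in the Bmal1KO libraries, against 23.1 and 24.6 CPM in the Bmal1Het libraries (log2 fold change -2.54, SE 0.27, edgeR adjusted p = 0.0129). Nuf2, its binding partner, had 3.96 and 3.12 CPM in the Bmal1KO libraries, against 20.2 and 26.0 CPM in the Bmal1Het libraries (-2.70, SE 0.30, edgeR adjusted p = 0.0134). Spc24, the direct partner of SPC25, had 5.39 and 5.71 CPM in the Bmal1KO libraries, against 23.0 and 28.0 CPM in the Bmal1Het libraries (-2.20, SE 0.25, edgeR adjusted p = 0.0140). All 3 fell in 2 of 2 libraries labelled Bmal1KO. Without Bmal1Het replicate 2 their adjusted p-values were 0.0688, 0.0740 and 0.0911 with log2 fold changes of -2.50, -2.52 and -2.06.

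Spc25 reads outnumbered those of each partner many times, and more so in the libraries labelled Bmal1KO. The ratio of Spc25 to Ndc80 reads was 82.1 and 62.8 in the Bmal1KO libraries, against 28.4 and 28.7 in the Bmal1Het libraries. The ratio to Nuf2 was 76.4 and 91.0 in the Bmal1KO libraries, against 32.5 and 27.2 in the Bmal1Het libraries. The ratio to Spc24 was 56.1 and 49.7 in the Bmal1KO libraries, against 28.5 and 25.3 in the Bmal1Het libraries. These 3 ratios were thus 2.51, 2.80 and 1.97 times as high under the label Bmal1KO, where that of G6pc2 to Spc25 was 1.196 times as high. Ratios among the partners differed between groups too, on counts of 100 to 925 reads. Those of Ndc80 to Spc24 were 0.684 and 0.792 in the Bmal1KO libraries, against 1.003 and 0.880 in the Bmal1Het libraries (-0.35 on the log2 scale). Those of Nuf2 to Spc24 were 0.734 and 0.546 in the Bmal1KO libraries, against 0.878 and 0.928 in the Bmal1Het libraries (-0.51). Those of Ndc80 to Nuf2 overlapped, at 0.931 and 1.45 in the Bmal1KO libraries and 1.14 and 0.949 in the Bmal1Het libraries (0.16).

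**Figure D3:**
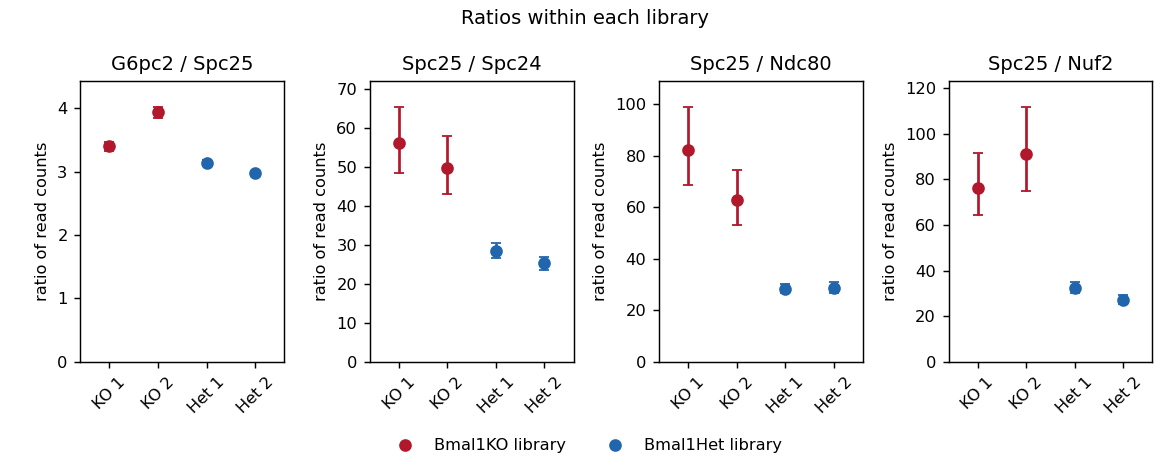
Ratios of read counts within each library, with exact binomial 95% intervals for counting error; each panel has its own linear axis from 0, with the Bmal1KO libraries at the left. The G6pc2 to Spc25 ratio stays between 2.97 and 3.93, while the ratios of Spc25 to Spc24, Ndc80 and Nuf2 are 1.97 to 2.80 times as high in the Bmal1KO libraries.

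Levels of different genes were compared per kilobase of annotated exon. Spc25 stood at 94.9 and 89.1 CPM per kb in the Bmal1KO libraries and at 206 and 222 CPM per kb in the Bmal1Het libraries. The mean of Ndc80, Nuf2 and Spc24 was 1.095 and 1.14 CPM per kb in the Bmal1KO libraries and 5.23 and 6.26 CPM per kb in the Bmal1Het libraries. Spc25 was therefore at 86.6 and 78.4 times the mean of its partners in the Bmal1KO libraries and at 39.4 and 35.5 times in the Bmal1Het libraries. The partners differed widely per kb. Spc25 was at 45.3 and 40.1 times Spc24, 167 and 128 times Ndc80 and 152 and 181 times Nuf2 in the Bmal1KO libraries. In the Bmal1Het libraries it was at 23.0 and 20.4, 57.9 and 58.5, and 64.6 and 54.2 times these genes. With the longest transcript as the length it was at 94.2 and 85.3 times in the Bmal1KO libraries and at 42.5 and 38.4 times in the Bmal1Het libraries. Subtracting the partners' mean per kb from Spc25 leaves 98.8% and 98.7% of its level in the Bmal1KO libraries and 97.5% and 97.2% in the Bmal1Het libraries. The remainder was at 90.9 ± 4.12 CPM per kb in the Bmal1KO libraries and 208 ± 10.7 CPM per kb in the Bmal1Het libraries (SD, n = 2 each). Its difference between groups on the log2 scale was -1.19, beside -2.36 for the partners' mean, -0.96 for G6pc2 and -1.22 for Spc25 as a whole. The subtraction is arithmetic only. Whether the partners' mean per kb stands for any share of the Spc25 RNA was not tested.

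Per kb Spc25 was the highest of the kinetochore genes measured here. In all 4 libraries it lay above each of 37 other kinetochore genes and 20 genes of cycling cells per kb. The highest of the kinetochore genes was Zwint at 28.7 and 24.4 CPM per kb in the Bmal1KO libraries and Mis12 at 22.8 and 26.9 CPM per kb in the Bmal1Het libraries. Of the 37, 9 fell in the libraries labelled Bmal1KO and 28 did not pass (edgeR, adjusted over all genes, of which 1.34% were lower), with a median log2 fold change of -1.68 beside 0.024 over all genes. Among those that fell were Casc5, the KNL1 scaffold to which the NDC80 complex is tied (-2.98), Cenpi (-2.75) and Cenpn (-2.35) of the inner kinetochore, Sgol1, which protects centromeric cohesion (-2.81), and the checkpoint genes Bub1b (-1.84) and Kntc1 (-1.50). The count was 5 without Bmal1Het replicate 1 and 0 without Bmal1Het replicate 2 (22 at an unadjusted p under 0.05), and 17 without Bmal1KO replicate 1 and 22 without Bmal1KO replicate 2. By DESeq2 it was 22 and by limma-voom 13, and with no filter or a filter at a mean of 5 CPM it was 20 and 15.

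**Figure D4:**
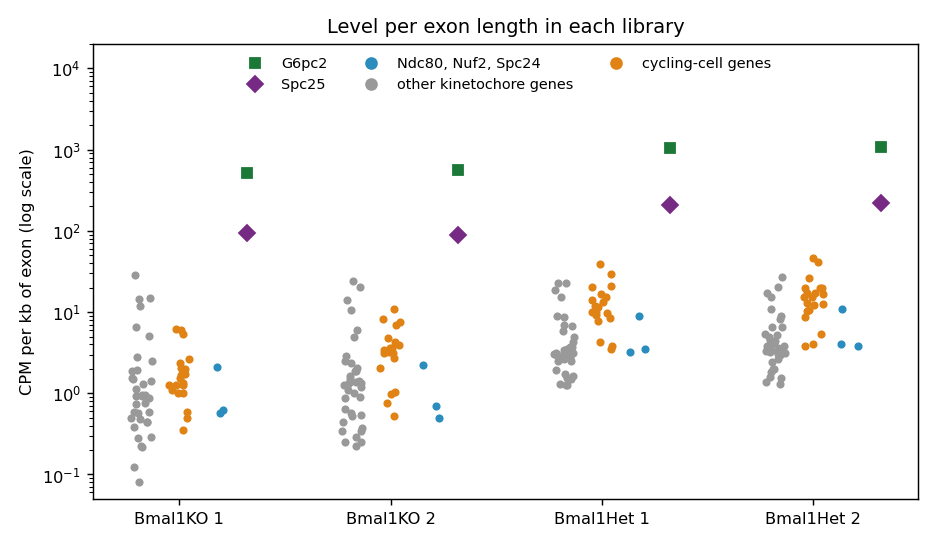
CPM per kb of annotated exon on a log axis in each library, Bmal1KO libraries at the left; squares are G6pc2, diamonds Spc25, and dots single genes of the 3 other NDC80 complex members, other kinetochore genes and genes of cycling cells. In each library Spc25 sits above every dot, at 89.1 to 222 CPM per kb.

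Genes of cycling cells had lower fold changes than either member. Of 20, 16 fell and 4 did not pass, beside 1.34% of all genes that were lower. Their median log2 fold change was -2.38, and all 20 had a lower fold change than G6pc2 and than Spc25. Examples are the mitotic kinase gene Aurka (-2.38), the cytokinesis factor Prc1 (-2.05), the transcription factor Foxm1 (-2.29), the spindle motor Kif11 (-2.62) and Pbk (-2.38). Mki67, the usual marker of cycling cells, was at 26.0 ± 8.14 CPM in the Bmal1KO libraries and 127 ± 40.7 CPM in the Bmal1Het libraries (-2.29, edgeR adjusted p = 0.0175). Without Bmal1Het replicate 2, 0 of the 20 passed in edgeR's test while 20 had an unadjusted p under 0.05; by DESeq2 and by limma-voom on all libraries 20 passed.

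Between replicates of a group, which share the label, the cycling genes in sum differed more than Spc25, the sum of its partners or the sum of the other kinetochore genes. The 20 genes summed to 154 and 294 CPM in the Bmal1KO libraries, with replicate 2 at 1.90 times replicate 1. In the same libraries Spc25 in replicate 2 was at 0.939 times, G6pc2 at 1.09 times and the sum of the 3 partners at 1.03 times its value in replicate 1. The sum of the 37 other kinetochore genes was at 1.07 times. Of the partners, Ndc80 was at 1.23, Nuf2 at 0.789 and Spc24 at 1.06 times, so a ratio far from that of the cycling genes was not particular to Spc25. In the Bmal1Het libraries the 20 genes summed to 1008 and 1264 CPM, with replicate 2 at 1.25 times replicate 1. There Spc25 was at 1.08, G6pc2 at 1.02 and the sum of the partners at 1.19 times. Taken singly, Ndc80 was at 1.07, Nuf2 at 1.29 and Spc24 at 1.22 times, so Nuf2 differed more than the cycling genes in sum. With 2 libraries a group these are single differences with no error of their own.

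Over the 4 libraries the gene most like G6pc2 was a β-cell gene of the secretory granule. Likeness was the SD over the libraries of the log2 ratio to G6pc2, over the 9238 other genes with a mean of 10 CPM or more, so a small SD means a constant ratio. Slc30a8, which loads zinc into insulin granules, ranked first (SD 0.029), followed by Sphkap, an anchoring protein of protein kinase A (0.033), Tor3a, a torsin ATPase (0.043), Rbl1, the pocket protein p107 (0.044), and Tacc3, a spindle protein (0.046). Slc30a8 had 299 and 336 CPM in the Bmal1KO libraries, against 597 and 603 CPM in the Bmal1Het libraries. There were 3.44 and 3.33 G6pc2 reads for each Slc30a8 read in the Bmal1KO libraries, against 3.45 and 3.49 in the Bmal1Het libraries. Spc25 ranked 98 of 9238 (SD 0.18), and Spc24, Ndc80 and Nuf2 ranked 7144, 8405 and 8689.

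The genes most like Spc25 mixed a β-cell receptor with genes of DNA replication and chromosomes. Glp1r, which encodes the GLP-1 receptor, came first (SD 0.056), followed by the flap endonuclease gene Fen1 (0.067), the recombination gene Rad54l (0.068), the condensin subunit gene Smc4 (0.073) and the replicative helicase gene Mcm2 (0.075). Glp1r had 97.8 and 95.8 CPM in the Bmal1KO libraries, against 202 and 224 CPM in the Bmal1Het libraries. Mcm2 had 24.97 and 26.3 CPM in the Bmal1KO libraries, against 59.0 and 65.0 CPM in the Bmal1Het libraries. G6pc2 ranked 40 of 9238, while Spc24 ranked 1755, Ndc80 5941 and Nuf2 7208. With 4 libraries in 2 groups this measure depends mainly on the difference between groups, which chose the pair, and it is a description.

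Among genes of β-cell identity G6pc2 was near the lower end. Leaving the member out, 5 of 28 fell in the libraries labelled Bmal1KO and 23 did not pass, beside 1.34% of all genes that were lower. The median log2 fold change of the 28 was -0.31. Those that fell were Ucn3, which encodes urocortin 3 and marks mature β-cells (-2.04), Glp1r (-1.14), Slc30a8 (-0.92), Pcsk1, which processes proinsulin (-0.85), and the prolactin receptor gene Prlr (-0.77), and 4 of the 28 had a lower fold change than G6pc2. The count was 2 without Bmal1Het replicate 1 and 0 without Bmal1Het replicate 2 (9 lower at an unadjusted p under 0.05), and 9 by DESeq2 and 8 with no filter. Of 10 other genes of islet autoantigens, the granule protein gene Chga (-1.02) and Slc30a8 fell and 8 did not pass, beside the same 1.34% of all genes; without Bmal1Het replicate 1 the count was 1, and without Bmal1Het replicate 2 it was 0 (3 lower at an unadjusted p under 0.05). By limma-trend on the deposited scaled values it was 1.

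**Figure D5:**
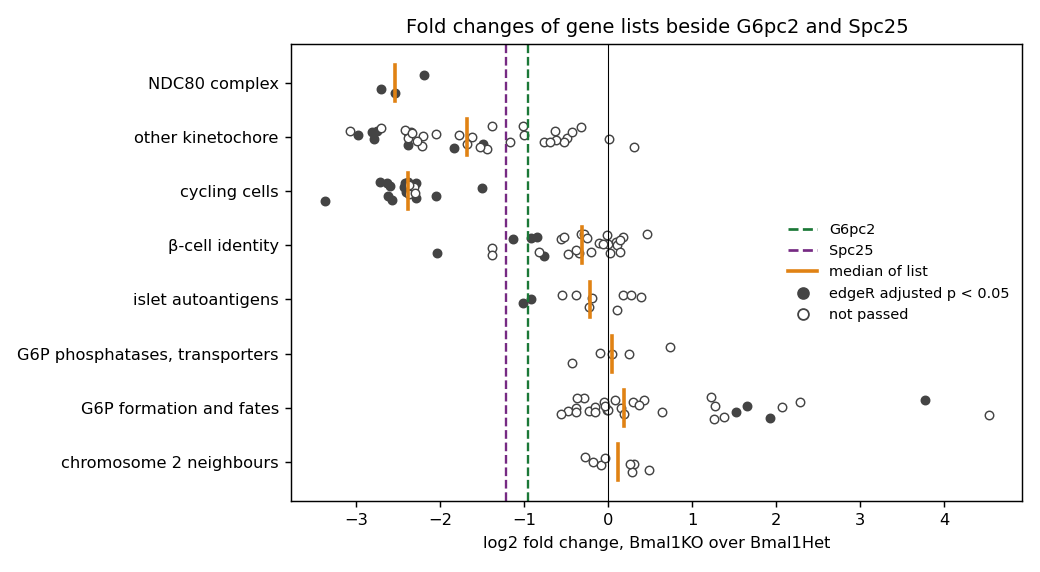
Log2 fold change of single genes, Bmal1KO over Bmal1Het, by gene list; filled points passed edgeR's test at an adjusted p under 0.05, the short bars are list medians without the members, and dashed lines mark G6pc2 (-0.96) and Spc25 (-1.22). Both lines lie right of every gene of cycling cells and left of most β-cell identity genes.

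None of 12 genes of transcription factors known to act on the G6pc2 promoter, or related to such factors, passed in edgeR's test (3 at an unadjusted p under 0.05; 2 by DESeq2, 0 by limma-voom; 1 without Bmal1KO replicate 2 and 1 with a replicate block). Mafa was at 75.5 ± 42.4 CPM in the Bmal1KO libraries and 133 ± 36.3 CPM in the Bmal1Het libraries (log2 fold change -0.82, edgeR adjusted p = 0.333). Its 2 Bmal1KO libraries were far apart, at 45.5 and 105 CPM, so the value was -1.55 without Bmal1KO replicate 2 (edgeR adjusted p = 0.0240) and -0.36 without Bmal1KO replicate 1. With a replicate block, for which the numbers are no stated pairing, the adjusted p was 0.0421; over all alternatives it ran from 0.0240 to 0.803. Pdx1 had 116 and 136 CPM in the Bmal1KO libraries, against 172 and 189.5 CPM in the Bmal1Het libraries (-0.52, edgeR adjusted p = 0.145; DESeq2 adjusted p = 0.0287). Foxa2 (-0.26) and Neurod1 (0.097) did not pass either.

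Of the genes that handle glucose 6-phosphate beside G6pc2, the other phosphatases and the transporters did not pass. G6pc3, the phosphatase found in most tissues, had 51.6 and 48.9 CPM in the Bmal1KO libraries, against 49.8 and 47.6 CPM in the Bmal1Het libraries (log2 fold change 0.045, edgeR adjusted p = 0.928). G6pc, the enzyme of liver and kidney, had 0 and 2 reads in the Bmal1KO libraries and 0 and 0 in the Bmal1Het libraries, at or under the floor of 3 counts. Per kb of exon G6pc2 was at 543 ± 32.2 CPM in the Bmal1KO libraries and 1055 ± 15.05 CPM in the Bmal1Het libraries. G6pc3 was at 22.6 ± 0.860 CPM per kb in the Bmal1KO libraries and 21.9 ± 0.688 CPM per kb in the Bmal1Het libraries.

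Slc37a4, the transporter that carries glucose 6-phosphate into the endoplasmic reticulum, had 297 and 287 CPM in the Bmal1KO libraries, against 195 and 155 CPM in the Bmal1Het libraries. Its log2 fold change was 0.74 (SE 0.16, edgeR adjusted p = 0.0673). Both Bmal1KO libraries lay above both Bmal1Het libraries, which was also so for 25.3% of all genes tested. Slc37a4 passed as higher under 6 of 14 alternatives, with log2 fold changes from 0.57 to 0.91. Slc37a1 (-0.43), Slc37a2 (0.25) and Slc37a3 (-0.097), related carriers, did not pass. Of these 5 tested genes 0 passed in edgeR's test and 2, Slc37a4 and Slc37a1, had an unadjusted p under 0.05; DESeq2 and limma-voom each called 1.

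The ratio of G6pc2 to Slc37a4 reads was 3.46 and 3.90 in the Bmal1KO libraries, against 10.6 and 13.6 in the Bmal1Het libraries. The glucose transporter gene Slc2a2 was at 205 ± 32.8 CPM in the Bmal1KO libraries and 206 ± 35.7 CPM in the Bmal1Het libraries. A list of 31 tested genes covered glucose entry, glucose phosphorylation and the pathways around glucose 6-phosphate. Not all of them act on glucose 6-phosphate itself. Of the 31, 4 rose and 27 did not pass, beside 1.2% of all genes that were higher. Those that rose were the phosphofructokinase gene Pfkp (1.92), its activating enzyme gene Pfkfb3 (1.65), the isomerase gene Gpi1 (1.53) and the fructose bisphosphatase gene Fbp2 (3.77). Fbp2 had 46.0 and 14.3 CPM in the Bmal1KO libraries, against 2.25 and 2.15 CPM in the Bmal1Het libraries. Its log2 fold change was 2.67 without Bmal1KO replicate 1 and 4.38 without replicate 2, and it did not pass by limma-voom (adjusted p = 0.0931). Gpi1 ranged from 1.01 to 1.89 with single libraries left out and did not pass without either Bmal1Het library. Without Bmal1Het replicate 2, 0 of the 31 passed in edgeR's test (6 at an unadjusted p under 0.05), and by DESeq2 7 did.

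None of the genes on either side of the pair passed the test. Nostrin, next to Spc25, was at 29.6 ± 2.81 CPM in the Bmal1KO libraries and 24.2 ± 2.85 CPM in the Bmal1Het libraries (log2 fold change 0.29, edgeR adjusted p = 0.536). Abcb11, next to G6pc2 and known as the bile salt export pump of liver, was at 8.67 ± 0.286 CPM in the Bmal1KO libraries and 6.21 ± 0.164 CPM in the Bmal1Het libraries (0.48, edgeR adjusted p = 0.511). Per kb Nostrin was at 15.7 ± 1.49 CPM in the Bmal1KO libraries and 12.8 ± 1.51 CPM in the Bmal1Het libraries, below both members. Abcb11 was lower still, at 1.68 ± 0.0555 CPM per kb in the Bmal1KO libraries and 1.21 ± 0.0319 CPM per kb in the Bmal1Het libraries. Further out, Cers6 (-0.28), Stk39 (-0.082), B3galt1 (0.31), Bbs5 (-0.18), Fastkd1 (0.26) and Ppig (-0.040) did not pass, and Dhrs9, Lrp2 and Klhl41 did not pass the filter on low counts. Of the 8 tested neighbours 0 passed in edgeR's test, 0 had an unadjusted p under 0.05, and 0 passed by DESeq2 or limma-voom. Members and neighbours were not tested against each other.

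Markers of several other cell types differed in the same libraries, not all in one direction. All 8 stromal markers were in the table. They summed to 132 and 362 CPM in the Bmal1KO libraries and to 57.8 and 17.3 CPM in the Bmal1Het libraries. The defining marker Pdgfra had 37 and 170 reads in the Bmal1KO libraries and 0 in both Bmal1Het libraries. Lum had 146 and 166 reads against 4 and 12. These 2 genes passed the filter on low counts only through the Bmal1KO libraries, so they could be tested only as higher. Both are among the 3 of 6 tested markers that rose, beside 1.2% of all genes that were higher, so nothing is read from that count. That count was 0 without Bmal1Het replicate 2 and by limma-voom (5 at an unadjusted p under 0.05 in each), 2 without Bmal1KO replicate 2 and 5 without Bmal1KO replicate 1 or with no filter. The 9 acinar markers summed to 159 and 63.8 CPM in the Bmal1KO libraries and 49.3 and 10.3 CPM in the Bmal1Het libraries. The 8 immune markers in the table, of 9 listed, summed to 183 and 687 CPM in the Bmal1KO libraries and 172 and 203 CPM in the Bmal1Het libraries. These sums overlapped, since Bmal1KO replicate 1 lay between the 2 Bmal1Het libraries. The 5 α-cell markers summed to 1682 and 3355 CPM in the Bmal1KO libraries and 1363 and 1304 CPM in the Bmal1Het libraries. All 5 had a higher level under the label Bmal1KO, with a median log2 fold change of 1.04. Of them 1 passed, Irx2, beside 1.2% of all genes that were higher. Irx2 had 21.9 and 12.7 CPM in the Bmal1KO libraries, against 2.30 and 3.27 CPM in the Bmal1Het libraries (2.64, edgeR adjusted p = 0.0230). Unlike the sum, Irx2 was higher in Bmal1KO replicate 1 than in replicate 2. Ppy, the hormone gene of PP cells, had 1974 and 4008 CPM in the Bmal1KO libraries and 1319 and 1046 CPM in the Bmal1Het libraries. The 6 duct markers were lower in sum, at 561 and 546 CPM in the Bmal1KO libraries and 741 and 817 CPM in the Bmal1Het libraries. Most of that sum was Krt7, at 368 and 397 CPM in the Bmal1KO libraries and 567 and 663 CPM in the Bmal1Het libraries. Of 5 tested duct markers 3 had a higher level and 2 a lower one, with a median log2 fold change of 0.053. Sox9 was higher, at 6.42 and 6.00 CPM against 1.21 and 2.48 CPM. The sums of the 3 δ-cell markers also overlapped, at 614 and 1521 CPM in the Bmal1KO libraries and 1026 and 1114 CPM in the Bmal1Het libraries. The 6 endothelial markers summed to 37.9 and 17.7 CPM in the Bmal1KO libraries and 14.3 and 10.5 CPM in the Bmal1Het libraries. The immune, stromal and α-cell sums were higher in Bmal1KO replicate 2 than in replicate 1 and the acinar sum was lower, while G6pc2 in the 2 libraries lay within 1.09 times. The part of these cells in the levels of G6pc2 and Spc25 was not tested.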

How the data were processed

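RNA was measured in 2 libraries labelled Bmal1KO and 2 labelled Bmal1Het, with cDNA from the SMART-Seq v4 kit for small inputs, per the labels' protocols. STAR, edgeR and the mm10 build are listed, without roles, per the submitters' processing notes. The counting tool, annotation and strand setting are unknown here. The authors deposited whole-number read counts per gene symbol, used for all main results. The authors also deposited a scaled table (a signal) whose values are those counts over 1 constant per library; 100% of values gave whole reads at a tolerance of 0.01, and the count test on them made the same number of calls. Of 23420 genes, 14649 passed filterByExpr (minimum count 10, minimum total 15). After TMM scaling, edgeR 4.0.16 was used (glmQLFit, glmQLFTest, R 4.3.3, 2-sided, Benjamini-Hochberg, threshold 0.05), with group as the only term. The test was also run on counts simulated with the dispersions fitted to these same libraries. Such counts cannot show whether replicates are technical or cells are mixed, and nothing is read from that run. Residual degrees of freedom were 2, and the prior ones 5.12. Alternatives used limma 3.58.1, DESeq2 1.42.0, other scalings and filters, a replicate block and leaving out each library. Lengths and coordinates are from GENCODE M21 (GRCm38); symbols absent there were matched as RefSeq synonyms. Members and lists were chosen with earlier results of these data known, and some listed genes are not reported here by name. Named beside the members were the NDC80 partners, glucose-6-phosphatase genes, transporters and neighbours whatever their test, and from each other list up to 6 genes past the threshold or the 2 with the smallest p. A count of 3 equals 0.0775 to 0.0937 CPM and covers counting error only, since reads carry no molecular identifiers. Replicates differed by more than sampling noise (chi-square per degree of freedom 63.9 for Bmal1KO and 42.9 for Bmal1Het).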

Additional observations from a re-analysis of the deposited data

How the results depend on the processing

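The log2 fold change of G6pc2 stayed between -1.02 and -0.92 when single libraries were left out, that of Spc25 between -1.29 and -1.17, and the difference in their log2 ratio between 0.15 and 0.36. With the longest transcript as the length, Spc25 stood at 89.7 times the mean of its partners in the Bmal1KO libraries and 40.4 times in the Bmal1Het libraries, beside 82.5 and 37.4 times with all annotated exons. Counts of calls depended on the settings far more. Genes higher numbered 430 with no filter, 266 with a filter at a mean of 5 CPM and 619 by DESeq2, and genes lower numbered 378 with no filter and 560 by DESeq2, beside 176 and 196; the cause was not tested. Leaving out single libraries gave 17 to 404 higher and 8 to 422 lower. A replicate block gave 313 higher and 278 lower, a log2 fold change of -0.96 for G6pc2 and of -1.22 for Spc25; the replicate numbers share no stated animal or day, and differences between replicates 1 and 2 correlated at only -0.020 between groups across genes, so the numbers are not taken as a pairing. Spc25 ranked 98 in likeness to G6pc2 with library totals only and with a prior count of 0.5, and 133 of 13067 genes at a mean of 1 CPM. Of 848 values of single named genes under an alternative, 769 stayed on the same side of the threshold; 745 of these kept their sign, and 24, from 10 genes not called in either fit, changed it. Another 47 lost the call, 30 of them without Bmal1Het replicate 2, and 32 gained it; 0 changed sign with a call. The effect of sequencing depth was not tested.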
